A study of Mus musculus with 16 samples.

Results

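The genes described are 10 neuropeptide precursor genes of the cortex, Cort, Sst, Npy, Vip, Tac1, Tac2, Penk, Pdyn, Cck and Crh. They were taken by gene symbol from the 4 deposited FPKM tables, which list 22440 genes each, and all 10 were found. FPKM is the number of sequenced fragments per kilobase of transcript, divided by a total for the library. The genes were chosen by measured values, since the etoposide folds of Cort, Sst and Cck were known at the time, so the etoposide values are a description and support nothing.

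The study asked how DNA breaks relate to transcription in neurons. RNA came from primary neurons of the cortex of Swiss-Webster mouse embryos at embryonic day 16, grown on poly-D-lysine and laminin. The etoposide library came from a culture given 5 µM etoposide, a drug that holds type II topoisomerases on cut DNA, for a time the labels do not give. Its control carries no treatment in its title and is called the etoposide control here. The NMDA library came from a culture given NMDA, an agonist of one class of glutamate receptor, which most experiments of the study used at 50 µM, with 10 min of exposure and 10 min of recovery. Its control, a further culture with no treatment named, is called the NMDA control here. With 1 library in each of the 4 groups, nothing can be set against a spread between replicates, and p-values are not given. The labels do not say whether animals were pooled, and the other 12 samples, on chromatin, were not analysed here.

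The steps between low FPKM values put the fragment totals at roughly 14600000 to 23300000 per library. FPKM of at least 1 was listed for between 9836 and 12886 genes. The FPKM of the NMDA control were 2.95-fold above those of the etoposide control by median over 9533 genes at FPKM of at least 1 in all 4 libraries, so levels are compared across the pairs only after scaling to that median ("median-scaled FPKM"). All 11 pan-neuronal markers measured were at FPKM of at least 1 in every library. No marker of hypothalamic neurons, other cells rich in peptides, reached FPKM 1 in any library (0 of 9, summed at 0.0589 to 0.534 FPKM). Astrocyte markers were present throughout, and their summed median-scaled FPKM was 254.5 and 190.4 in the etoposide pair and 643.7 and 608.2 in the NMDA pair, control first. Oligodendrocyte lineage markers summed to 35.9 and 13.8 in the etoposide pair and 118.5 and 111.1 in the NMDA pair on that scale. Comparisons across the pairs thus set cultures with different glial marker levels against each other.

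Neuropeptides are cut from larger precursor proteins by convertases, stored in dense-core granules and released on strong firing, and they act mostly on G-protein-coupled receptors. In cortex, somatostatin (Sst), neuropeptide Y (Npy) and vasoactive intestinal peptide (Vip) are made mainly by classes of GABAergic interneurons. Cortistatin (Cort) closely resembles somatostatin, binds the same receptors and is made by a subset of cortical interneurons. Cholecystokinin (Cck) is made both by interneurons and by many excitatory neurons. Transcription of Sst is a classic case of control by the cAMP response element, the site bound by the activity-regulated factor CREB.

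The start regions of Sst and Cort, the members higher with etoposide, and of Cck, the member that was lower, are shown because these genes gave the largest values below. Each is the stretch of 250 bases just before the start site, read 5′ to 3′ on the gene's strand, from RefSeq on GRCm38.p6. All of them lie on the minus strand, at chr16:23890845-23891094 for Sst, chr4:149126764-149127013 for Cort and chr9:121495695-121495944 for Cck. Capitals mark TGACG or its reverse complement CGTCA, the core of the cAMP response element.
Sst: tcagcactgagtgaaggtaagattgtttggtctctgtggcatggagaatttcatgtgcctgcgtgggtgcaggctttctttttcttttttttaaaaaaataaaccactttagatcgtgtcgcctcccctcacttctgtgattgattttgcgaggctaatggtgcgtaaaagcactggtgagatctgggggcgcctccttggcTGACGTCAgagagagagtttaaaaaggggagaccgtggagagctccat
Cort: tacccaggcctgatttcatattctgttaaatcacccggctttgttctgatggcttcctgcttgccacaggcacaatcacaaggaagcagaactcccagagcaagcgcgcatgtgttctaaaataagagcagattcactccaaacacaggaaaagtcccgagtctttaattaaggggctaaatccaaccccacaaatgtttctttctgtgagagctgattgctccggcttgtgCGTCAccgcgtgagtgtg
Cck: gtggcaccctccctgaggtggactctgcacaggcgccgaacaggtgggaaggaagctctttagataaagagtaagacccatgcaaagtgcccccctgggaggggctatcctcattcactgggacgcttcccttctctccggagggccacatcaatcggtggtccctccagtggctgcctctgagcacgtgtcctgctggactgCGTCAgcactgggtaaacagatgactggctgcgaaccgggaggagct

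Sst held the whole palindrome TGACGTCA, from 48 to 41 bases before its start, in which TGACG and CGTCA overlap. The palindrome was present in 1 of the 8 members with a RefSeq start region, against 1.55% of 32817 start regions of the same length. The 5-letter core, searched on both strands, was present in 5 of those 8 members (Sst, Cort, Cck, Vip and Tac1) and in 17.7% of all start regions. Cort carried it 18 to 14 bases before its start and Cck 47 to 43 bases before. The core in Sst is part of the palindrome, which Cort and Cck lack. Any part of these sites in the etoposide values was not tested. No member held TGANTCA with any base at N, a loose form of the AP-1 site. That loose form was present in 6.75% of all start regions. These matches are letters in a window and no measure of binding. Penk and Crh had no entry.

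Sst was at 34.6 FPKM in the etoposide control and 87.9 with the drug, and at 146.7 in the NMDA control and 141.4 after NMDA. It ranked 150 of all 22440 genes with etoposide and 595 in the control of that pair. The gene lies on chromosome 16 from 23889667 to 23890930 (mm9, minus strand) and has 2 exons, with 599 nucleotides of annotated transcript. With etoposide its FPKM was 2.54-fold that of its control, with an exact 95% counting interval of 2.18 to 2.97 from about 250 and 524 fragments. Such intervals, here and later, use estimated fragments and reflect the error of counting alone. After median scaling the 4 levels were 55.3, 190.1, 79.6 and 74.6, so the etoposide library stood above each of the other 3, including both controls.

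Cort was at 1.31 FPKM in the etoposide control and 18.1 with the drug, and at 8.35 in the NMDA control and 7.73 after NMDA. It was the one member whose etoposide FPKM was above all other libraries even as deposited, and the median-scaled levels were 2.09, 39.1, 4.53 and 4.08. Cort lies on chromosome 4 from 148499300 to 148500850 (minus strand) and has 2 exons. Its FPKM with etoposide was 13.8-fold that of the control, but the control value stood for only about 7 fragments and the counting interval was 6.45 to 35.1. The gene ranked 9842 of all genes in the control and 1012 with etoposide.

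Cck went the other way. Its FPKM was 33.5 in the etoposide control and 12.6 with the drug, and 162.9 and 160.2 in the NMDA pair. The etoposide level was 2.67-fold lower than its control (interval 2.15 to 3.33, from about 360 and 111 fragments). Median-scaled FPKM was 53.6, 27.1, 88.4 and 84.5, the lowest in the etoposide library. The gene spans 5.87 kb on chromosome 9, from 121398942 to 121404807 (minus strand).

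Npy, an inhibitory peptide often found in cells that make somatostatin, was at a much lower level than Sst. It was at 3.83 FPKM in the etoposide control and 4.56 with etoposide, from about 24 fragments each, and at 9.47 and 9.31 FPKM in the NMDA pair. The etoposide ratio of 1.19 had an interval of 0.646 to 2.20, which includes 1. After median scaling the levels were 6.13, 9.86, 5.14 and 4.91, highest with etoposide like those of Sst, and the ratio of 1.61 (0.873 to 2.97) still took in 1. Npy was at 11.1% of the Sst level in the etoposide control (6.97% to 16.9%) and 5.19% with the drug (3.28% to 7.83%), close to the 6.46% and 6.58% of the NMDA pair. Vip, Tac1, Tac2, Penk, Pdyn and Crh were under FPKM 1 in both libraries of the etoposide pair. Of the 10 members, 4 passed the filter of FPKM 1 in either library there.

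**Figure D1:**
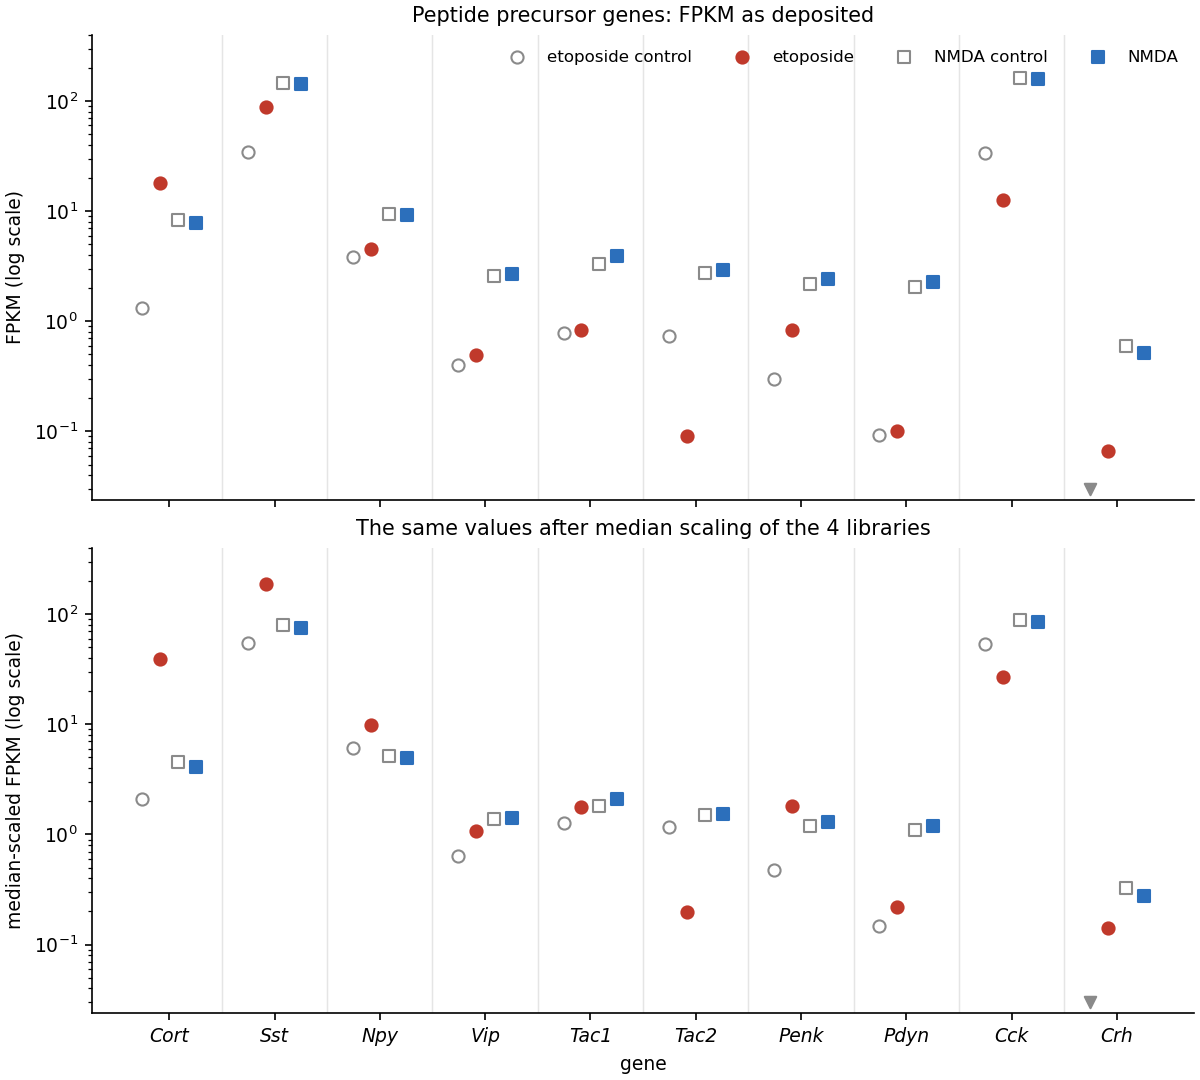
FPKM of the 10 peptide genes in the 4 libraries, as deposited (top) and after median scaling (bottom), on log axes. Each symbol is 1 library, and a triangle at the foot stands for a value listed at 0. The etoposide symbol is the highest of the 4 for Cort in both panels and for Sst after scaling, and the lowest for Cck in both panels.

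On the log2(FPKM + 1) scale, Cort had a log2 fold of 3.05 with etoposide, Sst 1.32, Npy 0.20 and Cck -1.35. By a size rule of at least 2-fold, 2 members were higher and 1 was lower. Of all 10681 genes compared, 0.477% passed that rule upward and 7.36% downward, and the median log2 fold was -0.32. Only 0.187% of those genes had a higher fold than Cort and 0.281% a higher fold than Sst. Nothing is read from these shares, since the choice of genes used this contrast. In the authors' deposited table, which lists 12 genes as higher and 680 as lower with etoposide (0.0535% and 3.03% of all genes), Cort was the second and Sst the tenth of the higher genes by ratio. Cck was number 420 of the lower genes by ratio in the authors' deposited table. Median scaling, which moves the etoposide pair by 0.43 on the log2 scale, left 2 members higher and 0 lower, against 2.55% and 2.69% of genes. It took Cck to a log2 fold of -0.96, just short of the size rule, and Cort and Sst to 3.70 and 1.76.

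The loci listed for the 10 genes are short, spanning 1.26 to 8.40 kb, although the annotated Pdyn gene spans 13.3 kb. Shorter genes had higher folds with etoposide, at a median log2 fold of -0.09 for 2528 genes spanning under 10 kb and -0.39 for 8153 longer genes. Among the short genes 1.31% passed the size rule upward and 2.97% downward. With the libraries scaled to the short genes alone, the log2 folds were 3.49 for Cort, 1.50 for Sst, 0.38 for Npy and -1.21 for Cck.

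The members at low level could be read less firmly. Penk, the enkephalin precursor, was at 0.298 FPKM in the etoposide control and 0.833 with etoposide, a ratio of 2.80 with an interval of 1.05 to 8.50 from about 6 and 15 fragments. An exon of a noncoding gene on the opposite strand overlaps Penk, so its reads are uncertain. Tac2, the neurokinin B precursor, was at 0.733 and 0.0907 FPKM, the latter standing for about 1 fragment or less, and the interval of its ratio of 0.124 reached up to 1.34. Vip was at 0.397 and 0.494 FPKM (ratio 1.25, interval 0.453 to 3.44). Tac1, the substance P precursor, was at 0.788 and 0.827 FPKM (ratio 1.05, interval 0.407 to 2.66). Pdyn, the dynorphin precursor, at 0.0928 and 0.102 FPKM, and Crh, corticotropin-releasing hormone, listed at 0 and 0.0658, were under the level of 3 fragments in both libraries and get no ratio. The locus listed for Pdyn covers only part of the annotated gene. Differences in Vip, Tac1, Pdyn and Crh were not detectable at this depth.

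**Figure D2:**
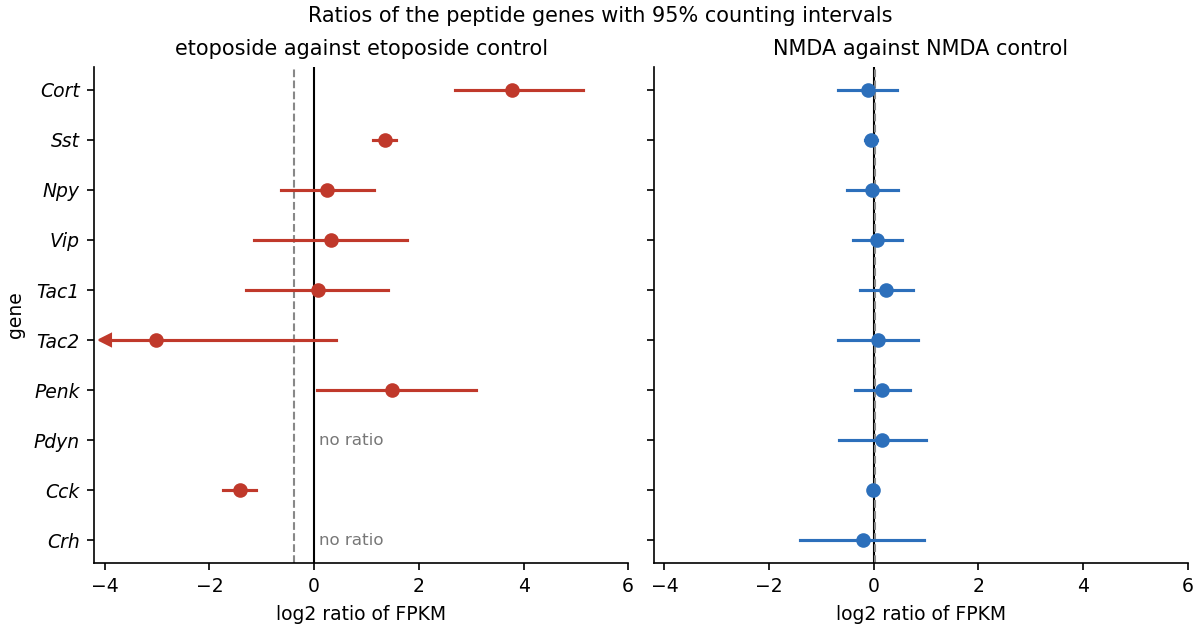
Log2 ratio of FPKM, treated library over its own control, for each peptide gene, with exact 95% counting intervals as bars. The dashed line is the median of all genes at FPKM of at least 1 in both libraries (-0.39 with etoposide, 0.03 with NMDA), an arrow marks an interval that runs past the axis, and genes with both values under 3 fragments have no ratio. With etoposide the intervals of Cort, Sst and Penk lie above 0 and that of Cck below it, while every NMDA interval includes 0.

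With NMDA, 0 of the 9 members at FPKM of at least 1 passed the size rule either way, against 0.438% of 13028 genes upward and 0.729% downward (0.376% and 0.706% after median scaling, again with 0 members). Sst was at 146.7 and 141.4 FPKM, a ratio of 0.964 with an interval of 0.893 to 1.04. Cck, at 162.9 and 160.2 FPKM, had a ratio of 0.984 (0.927 to 1.04). Both genes were counted more deeply in this pair, which is why their intervals are narrow. Cort had a ratio of 0.926 (0.625 to 1.37) and Npy 0.983 (0.703 to 1.37). The largest ratio was that of Tac1, at 3.34 and 3.94 FPKM (1.18, interval 0.831 to 1.67). Vip, Tac2, Penk and Pdyn had ratios of 1.05, 1.06, 1.12 and 1.12, and Crh, under FPKM 1, had 0.867 (0.379 to 1.94). No member was in the authors' deposited table for NMDA, which lists 25 genes as higher and 38 as lower (0.111% and 0.169% of all genes).

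The controls differed from each other as well. As deposited, 9 members passed the size rule as higher in the NMDA control than in the etoposide control, as did 75.1% of 12987 genes, with 0.708% lower. After median scaling 0 of the members passed the size rule, against 8.81% of genes higher and 2.31% lower. Median-scaled ratios of the NMDA control to the etoposide control were 1.44 for Sst (interval 1.26 to 1.65), 1.65 for Cck (1.48 to 1.85), 2.16 for Cort (0.994 to 5.56) and 0.839 for Npy (0.525 to 1.39). Penk had 2.48 (1.10 to 6.75), Vip 2.19 (1.11 to 4.88) and Pdyn, with about 1 fragment in the etoposide control, 7.44 (1.15 to 412). The median-scaled etoposide ratio was 18.7 for Cort, 3.44 for Sst and 0.506 for Cck against the etoposide control. The controls thus differed by less than the etoposide pair for Cort and Sst, while for Cck the sizes were close (1.65 between controls). A pair of control cultures does not give a spread.

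The order of the members' levels was not the same with etoposide as in the other libraries. In the etoposide control, Sst and Cck did not differ beyond counting error (ratio 1.03, interval 0.874 to 1.22), and Npy and Cort followed. Cort did not differ from Tac1 there (1.66, interval 0.557 to 4.58). With etoposide the order was Sst, Cort, Cck and Npy, each above the next beyond counting error. In both libraries of the NMDA pair it was Cck, Sst, Npy and Cort, and Npy and Cort did not differ beyond counting error (1.13, interval 0.800 to 1.62, in the control). The next members, Tac1, Tac2, Vip, Penk and Pdyn, were at 2.03 to 3.94 FPKM in that pair, and no neighbours among them differed beyond counting error. Crh was the lowest, at 0.599 and 0.519 FPKM.

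Ratios between genes of the same library do not depend on how the library was scaled. Cort was at 3.79% of the Sst level in the etoposide control (interval 1.52% to 7.88%), 20.6% with the drug (16.1% to 26.0%), and 5.69% and 5.46% in the NMDA pair. The etoposide interval lay above those of the other 3 libraries. Sst was at 1.03 times Cck in the etoposide control and 7.00 times with etoposide (5.70 to 8.67), against 0.901 and 0.883 in the NMDA pair. Sst and Cck thus parted in 1 library of 4.

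How Sst stood relative to GABAergic neuron genes depended on the gene it was set against. Gad1, an enzyme of GABA synthesis, was at 32.4, 20.1, 47.5 and 52.3 FPKM in the etoposide control, the etoposide library, the NMDA control and the NMDA library. Sst was at 1.07 times Gad1 in the etoposide control, 4.39 times with the drug (3.94 to 4.88), and 3.09 (2.90 to 3.29) and 2.70 times in the NMDA pair. Relative to Gad2, the other such enzyme, Sst stood at 4.24, 14.6, 18.2 and 16.6 times in the same order, so the NMDA control was above the etoposide library. Relative to Slc32a1, the vesicular GABA transporter, it stood at 4.26, 19.2 (16.1 to 22.9), 8.53 and 7.04 times, and there the etoposide library was above both controls. Cort relative to Gad1 was 0.0404, 0.903, 0.176 and 0.148 in that order, highest with etoposide. Cck kept close to Slc17a7, the vesicular glutamate transporter of excitatory neurons, at 1.32, 1.22, 1.42 and 1.39 times its level, and the interval of the etoposide library (0.984 to 1.51) took in the other 3 ratios. No other excitatory gene was set against Cck. The median log2 fold of 13 excitatory markers with etoposide was -0.67, against -1.35 for Cck, so the closeness need not hold for the others. In bulk RNA, fewer cells of a type and less RNA per cell cannot be told apart.

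**Figure D3:**
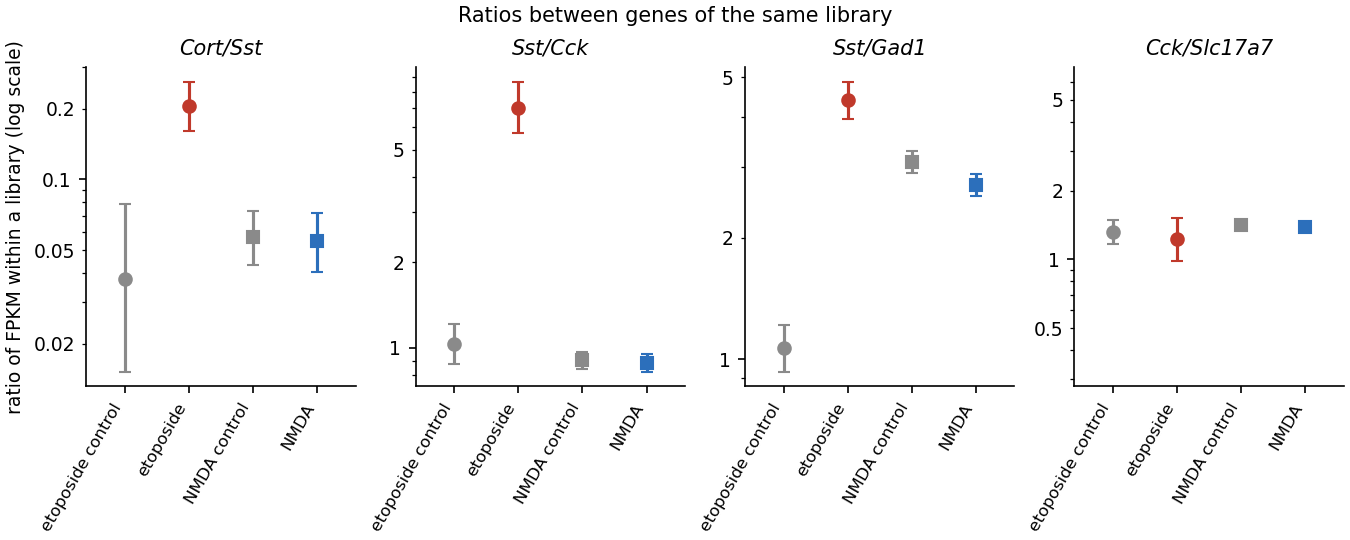
Ratio of FPKM between 2 genes of the same library, for Cort over Sst, Sst over Cck, Sst over Gad1 and Cck over Slc17a7, on log axes, with exact 95% counting intervals. Each point is 1 library. The etoposide library stands apart from the other 3 for Cort over Sst and Sst over Cck, the etoposide control is the low point for Sst over Gad1, and Cck over Slc17a7 is between 1.22 and 1.42 in all 4.

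Genes that mark GABAergic neurons were mostly lower with etoposide, unlike Sst and Cort. Of 25 measured, 23 had a log2 fold below 0 (20 after median scaling), against 76.7% of all genes (48.9% after scaling). By the size rule 2 were lower and 0 higher, against 7.36% and 0.477% of all genes. After median scaling 0 were lower and 1 higher, against 2.69% and 2.55% of all genes. The 1 higher, Chodl, passed the FPKM filter only through the etoposide library. As deposited the list's median log2 fold was -0.65, against -0.32 for all genes. Calb2, calretinin, was at 9.49 and 3.35 FPKM, control first. Lhx6, a factor of the lineage that gives somatostatin cells, was at 4.22 and 2.41 FPKM. The list's summed median-scaled FPKM was 272.9 and 201.5 in the etoposide pair and 199.5 and 207.8 in the NMDA pair. Excitatory neuron markers had a median of -0.67, with 12 of 13 below 0 (10 after median scaling). Their part in the Sst, Cort and Cck values was not tested.

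Of 24 genes for receptors of the member peptides or of the same receptor families, with the binding protein Crhbp, 7 were measured with etoposide. Of these, 6 were below 0 (4 after median scaling), shares near those of all genes (76.7% and 48.9%), and the median log2 fold was -0.63, against -0.32. Oprl1, a receptor of the opioid family, was at 10.4 and 4.56 FPKM, Npy1r at 5.69 and 3.34 and Crhr1 at 2.57 and 1.09. In the authors' deposited table the ratio for Oprl1 is 2.27-fold downward. Of the receptors of somatostatin and cortistatin, Sstr1 was at 1.69 and 1.30 FPKM, Sstr2 at 1.85 and 1.56 and Sstr4 at 1.53 and 0.502. Sstr3 was at 0.982 and 0.208 and is in the authors' deposited table as lower. In the NMDA pair the same receptors were at 14.4 and 15.9 FPKM for Sstr1, 14.8 and 13.3 for Sstr2, 12.7 and 13.0 for Sstr4 and 1.42 and 1.12 for Sstr3. These levels carry the offset between the pairs, and after median scaling Sstr1 was at 2.70 and 2.80 in the etoposide pair and 7.79 and 8.40 in the NMDA pair. Cckbr, the main cholecystokinin receptor of brain, was at 8.59 and 8.71 FPKM in that pair and at 0.758 and 0.383 in the etoposide pair (4.66, 4.60, 1.21 and 0.829 after median scaling). Oprd1, the delta opioid receptor, was at 1.58 and 1.73 in the NMDA pair, Vipr2 at 1.24 and 1.60, Tacr3, which binds neurokinin B, at 0.975 and 1.30, and Npy1r at 11.7 and 14.4. With NMDA 0 of the 12 receptor genes measured passed the size rule, against 0.438% of all genes upward and 0.729% downward. The median log2 fold of these receptor genes was 0.05 against 0.02 for all genes.

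Of the machinery that makes and stores peptides, 18 of 22 measured genes had a log2 fold below 0 with etoposide (14 after median scaling), near the 76.7% of all genes (48.9%). The median log2 fold as deposited was -0.57, against -0.32. By the size rule 2 genes were lower and 0 higher, against 7.36% and 0.477% of all genes. After median scaling 1 was lower and 1 higher, against 2.69% and 2.55% of all genes. With so few genes, nothing is read from these counts. Pcsk2, the convertase that completes many peptides, was at 17.9 and 5.29 FPKM, a ratio of 3.38-fold downward that the authors' deposited table also holds. Cpe, the carboxypeptidase that trims them, was at 226.4 and 116.2 FPKM, Pam, which amidates them, at 34.2 and 17.5, and Ptprn2, a granule membrane protein, at 14.6 and 5.74. With NMDA, 20 of 23 had a log2 fold above 0 (15 after median scaling), against 57.2% of all genes (46.4%), with a median of 0.09, and Pcsk1, the other main convertase, had the largest, at 5.89 and 7.14 FPKM.

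**Figure D4:**
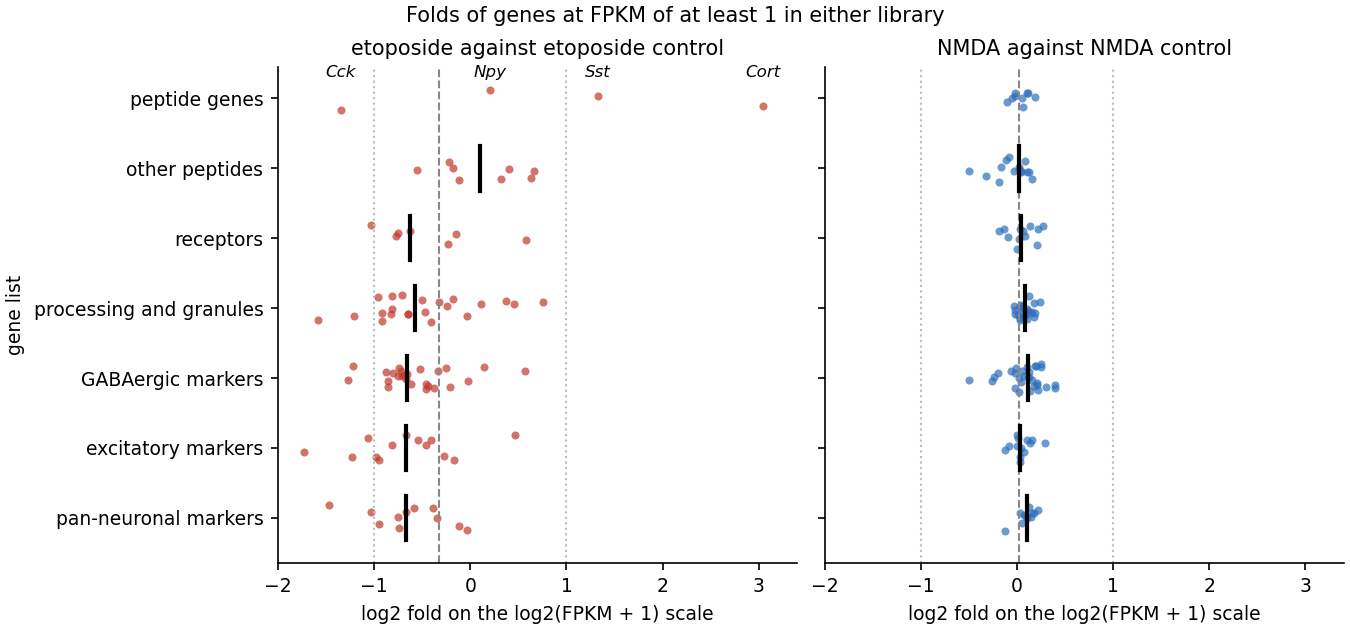
Log2 fold on the log2(FPKM + 1) scale for genes of 7 lists at FPKM of at least 1 in either library, with etoposide (left) and NMDA (right), 1 point per gene. Black bars are list medians (none is drawn for the peptide genes), the dashed line is the median of all genes and dotted lines mark 2-fold. With etoposide, Cort and Sst are the points past the upper 2-fold line, while the medians of receptors, processing genes and neuronal markers lie below the dashed line.

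Genes of the cAMP and activity pathways that can act on peptide genes had folds above 0 with etoposide about as often as all genes. More of them passed the size rule upward, but nothing is read from that count, since the list was chosen with earlier results known. Of 24 measured, 6 had a log2 fold above 0 (11 after median scaling), against 23.3% of all genes (51.1%), and the median was -0.52. By the size rule 3 were higher and 1 was lower, against 0.477% and 7.36% of all genes. After median scaling 5 were higher and 0 lower, against 2.55% and 2.69%. The 3 higher as deposited were Fos, at 2.68 and 14.7 FPKM, Fosb at 0.0985 and 2.03 and Npas4 at 1.54 and 4.10. All 3 are in the authors' deposited table as higher, and Fosb passed the FPKM filter only through the etoposide library. Adcy1, an adenylyl cyclase, was at 27.6 and 12.3 FPKM. With NMDA, 22 of 25 had a log2 fold above 0 (20 after median scaling), against 57.2% of all genes (46.4%), with a median of 0.16, and 5 of them (Fos, Fosb, Junb, Npas4 and Egr1) are in the authors' deposited table as higher. The peptide genes in that same pair stood within counting error of their control.

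The genes whose profile over the 4 libraries was nearest to that of Sst were found by Euclidean distance of centred log2(median-scaled FPKM + 1), among 9852 genes at FPKM of at least 5 in some library. Rgs2, a brake on G-protein signalling, was nearest (distance 0.231, median of all genes 1.44), at 5.01, 10.9, 20.5 and 18.6 FPKM. Znhit3 (0.232), Snord47 (0.265), Sertad1 (0.271) and Mageh1 (0.307) followed. The nearest to Cort were AA465934 (0.763), Rps27 (0.767), Mir467f (0.840), 2810008D09Rik (1.27) and Snora34 (1.35), against a median of 2.92. Reads of Rps27 are uncertain because ribosomal protein genes have near-identical copies. Mir467f was at 6.02 FPKM with etoposide and listed at 0 in every other library, so it passed the filter only through the etoposide library. None of the nearest genes was another peptide gene. Likeness over 4 libraries says nothing of shared control.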

How the data were processed

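Per the labels' protocols, paired-end libraries of total RNA were made for the 4 groups. The submitters' processing notes list TopHat, Bowtie and Cuffdiff, Cufflinks 2.0.0 and the build mm9, without saying which made the tables. FPKM values were taken as the authors deposited them. The authors' 2 deposited lists (692 genes for etoposide, 63 for NMDA) hold values equal to the library tables, and no source used here gives their rule.

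The 10 genes, the 12 other lists and the rules were chosen with earlier results of these data known. A pseudocount of 1 FPKM was added before taking the log2 of treated over control, which makes folds of low genes too small. Genes under FPKM 1 in both libraries were left out, and a 2-fold size rule was used. No test was run, with 1 library per group. Lists are described by counts and medians. Genes named from a list are among its 4 largest folds, or receptors at FPKM of at least 1, and others were chosen after their values were seen.

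The value of 1 fragment was read from single-exon genes with a length correction of 190 nucleotides, and 35.6% to 44.6% of low genes lay within 10% of it, so fragment numbers and the exact 95% intervals made from them are approximate. Transcripts came from GENCODE on mm9, whose exons were matched to the tables' loci, with 1 added to each start. Start regions came from RefSeq on GRCm38.p6. Whether strands were counted apart is not given in these sources. Alternatives were pseudocounts of 0.1 and 5, other filters, median, upper-quartile, short-gene and GABAergic scaling, and the other control. The fold and interval calculations were tested on simulated counts with known fragment numbers, which does not check the estimated fragments used here. Python 3.11.15, pandas 2.3.3 and scipy 1.17.1 were used.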

Additional observations from a re-analysis of the deposited data

How the results depend on the processing

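The count of 2 members higher with etoposide (Cort and Sst) and the counts of 0 with NMDA were the same under every alternative run. The log2 fold with etoposide ran from 1.87 to 3.73 for Cort and from 1.23 to 1.97 for Sst. The count lower with etoposide, 1 (Cck), was 0 with median scaling, 0 with upper-quartile scaling, 0 on the GABAergic neuron scale and 2 with the other control and median scaling together, where Tac2 joined Cck. The log2 fold of Cck ran from -1.67 to -0.74, below 0 throughout. The 9 members different between the controls became 3 with a pseudocount of 5, 4 at FPKM of at least 5, and 0 with median, 0 with upper-quartile and 0 with short-gene scaling, the last chosen after seeing the data. Npy between the controls reversed, to -0.21 with median, -0.29 with upper-quartile and -0.43 with short-gene scaling. These scalings take out the offset between the pairs. With the other control and median scaling together, the NMDA log2 folds ran from -0.27 (Npy) to 0.94 (Pdyn), with Cort at 0.71 and Cck at 0.65. Members under a filter gave no value there. No paired analysis was possible because each group has 1 library, and no replicate could be left out. Depth limits the 6 members under FPKM 1 in the etoposide pair.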

Other observations

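Of the other peptide genes, a list of 46, 8 were measured with etoposide. Their median log2 fold was 0.10, against -0.32 for all genes and -0.09 for all genes spanning under 10 kb. Of the 8, 4 were above 0 and 4 below, against 23.3% of all genes above 0. None was past 2-fold, against 0.477% of all genes upward and 7.36% downward. Nts, neurotensin, was at 0.976 and 2.07 FPKM (ratio 2.12, interval 1.13 to 4.10), Nppc, a natriuretic peptide, at 2.24 and 3.30 (1.47, interval 0.909 to 2.39) and Grp, gastrin-releasing peptide, at 7.08 and 4.50 (0.635, interval 0.431 to 0.926). After median scaling 7 of the 8 were above 0, against 51.1% of all genes. The median log2 fold was then 0.48, against 0.01 for all genes. After scaling 2 were at least 2-fold higher, Nts and Rln1 (0.798 and 1.84 FPKM), against 2.55% of all genes. Both passed the filter of FPKM 1 only through the etoposide library, so nothing is read from these 2 calls.

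A few further genes were chosen after their values were seen. Crhbp, the binding protein of corticotropin-releasing hormone, was the receptor-list gene above 0 with etoposide, at 1.08 and 2.11 FPKM (ratio 1.95, interval 1.20 to 3.24). Chodl, a marker of a rare class of somatostatin neurons, was at 0.483 and 1.20 FPKM (2.48, interval 1.42 to 4.47). It passed the filter of FPKM 1 in that pair only through the etoposide library. Of the 25 GABAergic markers measured, Chodl was 1 of 2 above 0, and 23 were below, among them Nos1 at 1.84 and 0.759 FPKM. The median-scaled FPKM of Crhbp and Chodl with etoposide, 4.55 and 2.59, were above those of the other 3 libraries (at most 1.82 and 0.772). Pcsk1 was at 1.47 and 3.17 FPKM with etoposide, while Pcsk2 was lower. Apitd1, the nearest gene to Cort at 1608 bases, was at 0.516, 0.918, 4.22 and 4.04 FPKM in the order etoposide control, etoposide, NMDA control and NMDA, and Cort stood at 2.54 times its level in the etoposide control, 19.7 times with etoposide (interval 10.2 to 42.8), 1.98 times in the NMDA control and 1.91 times with NMDA.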
